A study of Mus musculus with 8 samples.

Results

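The complement genes described here are 9 genes that mesenchymal cells such as fibroblasts and smooth muscle cells can transcribe, namely C3, C4b, Cfb, Cfd, C1s, C1ra, Cd55, Cd59a and C3ar1. Members were all probes annotated to these symbols, with C1s looked up under its later name C1s1. This gave 8 probes for 7 genes, of 25697 probes for 16593 named genes on the array. No probe in the annotation used here carried C3 or Cfd, and both were therefore not analysed here. The arrays compared primary vascular smooth muscle cells of the PMCA4 knockout (4 arrays) with those of the PMCA4 wild type (4 arrays). PMCA4 is a calcium pump of the plasma membrane, encoded by Atp2b4. Cells of both genotypes came from the carotid artery of male mice on the C57bl6 background, and the ages are not given in the labels. Both were synchronised by serum, then given serum and the growth factor PDGF-BB, stained with Hoechst and sorted for early G1. The labels name neither the exon removed nor the animals or cultures behind each array. The p-values therefore cover the spread among these 8 arrays, part or all of which may be technical.

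Complement is a cascade of secreted proteases and binding proteins that marks surfaces for uptake and can assemble a pore in a membrane. The classical arm starts with the C1 complex, whose proteases C1r and C1s cleave C4 and C2, and the alternative arm runs through C3, factor B and factor D. Host cells carry inhibitors on their own surface: CD55 speeds the decay of the convertases that cleave C3, and CD59 blocks assembly of the pore. The liver makes most of the circulating components, and stromal cells of many tissues make part of the local supply.

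A detection p under 0.05 was the limit used here for a signal above background, and 11697 to 11987 probes of an array met it. Arrays of one genotype correlated at 0.991 to 0.996 over the tested probes and arrays of different genotypes at 0.939 to 0.947. The deletion could not be checked, because the single Atp2b4 probe above background averaged a log2 intensity of 6.95 ± 0.27 in knockout and 6.89 ± 0.14 in wild type (SD, n = 4 each), and which part of the gene is missing is not stated. All directions below rest on the array labels. Of 10 smooth muscle markers, 6 were tested. Cnn1 and Synpo2 were above background on no array, and Myh11 and Mylk on no wild-type array. Acta2, Tagln, Smtn and Lmod1 were above background on all 8 arrays, and Des and Myocd on too few to be tested.

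Of the 8 member probes, 5 were above background on all 8 arrays and were tested, and these stood for 4 genes. All 5 differed between genotypes in limma at an adjusted p under 0.05, 4 of them higher and 1 lower in knockout, with no overlap between the groups. The background is wide here: 56.3% of the 12040 probes tested passed the same threshold, 26.3% higher and 30.0% lower, and the groups did not overlap for 51.5%. Counted by gene, 57.6% passed, 26.9% higher and 30.7% lower, and 53.5% had groups that did not overlap. The count of members called is therefore read with the size of each change. The median log2 difference of the 4 tested members was 0.50, beside -0.02 over all 8302 genes tested. In the middle 50% of all genes the log2 difference lay between -0.29 and 0.26. Cd59a was within that range, and C4b, Cd55 and C1s1 were outside it, where the other 50% of genes lie by definition. Between the 5th and 95th percentiles, at -1.05 and 1.13, lay C1s1 too, and only C4b and Cd55 were beyond them. Of 3940 genes with a positive difference, 17% had one at least as large as that of C1s1.

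**Figure D1:**
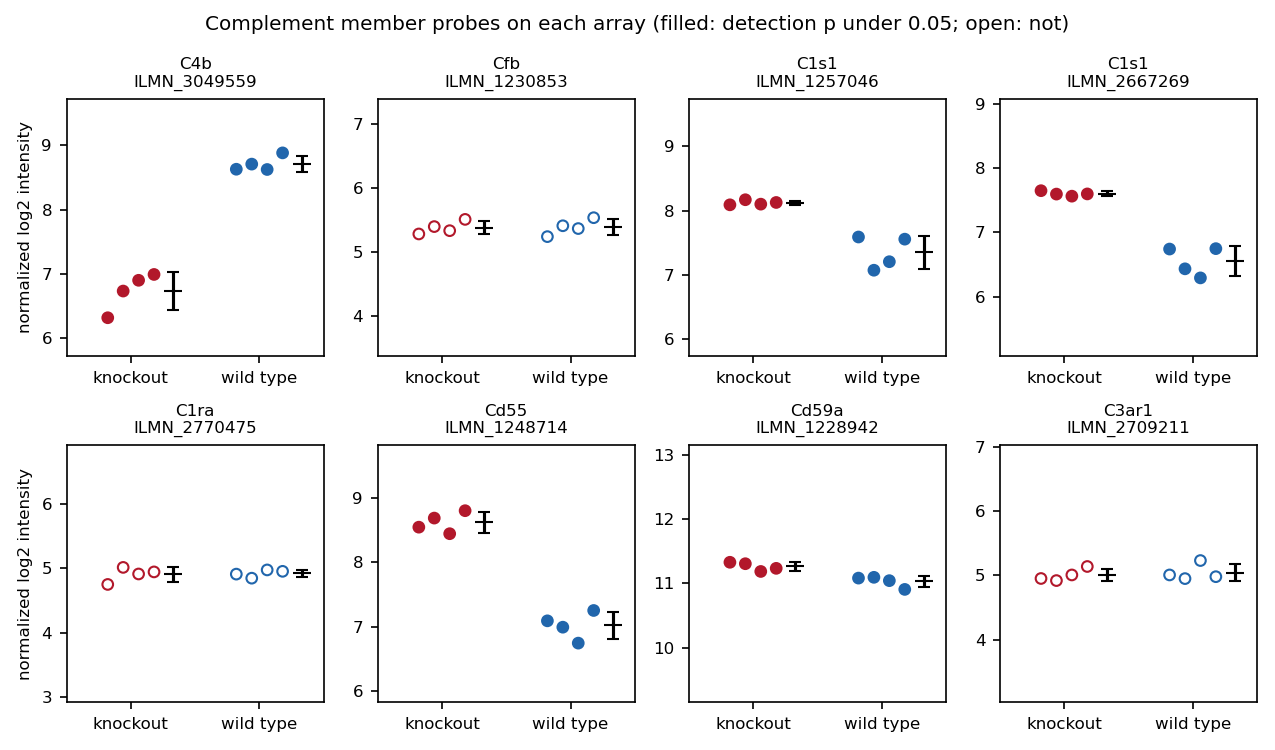
Normalized log2 intensity (y axis, a span of 4 units in each panel) of the 8 member probes on the 4 knockout arrays and the 4 wild-type arrays; each point is 1 array, and bars are the mean ± SD. The points of C4b sit lower in knockout, those of C1s1, Cd55 and Cd59a sit higher, and those of Cfb, C1ra and C3ar1 are open because no array was above background.

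The gene of C1s, a protease of the C1 complex, was higher in knockout by both of its probes. C1s1 (probe ILMN_1257046) had log2 intensities of 8.09, 8.17, 8.10 and 8.13 on the knockout arrays, against 7.59, 7.07, 7.20 and 7.55 on the wild-type arrays. The knockout arrays lay within 0.1 of each other, while the wild-type arrays fell into a higher pair, replicates 1 and 4, and a lower pair, replicates 2 and 3. The log2 difference was 0.77, with a standard error of 0.11 and a 95% confidence interval from 0.51 to 1.02 (limma adjusted p = 0.000252), which is 1.70-fold. The other C1s1 probe, ILMN_2667269, had log2 intensities of 7.65, 7.60, 7.56 and 7.60 in knockout, against 6.74, 6.43, 6.29 and 6.75 in wild type. Here too wild-type replicates 1 and 4 were above replicates 2 and 3, and the genotypes did not overlap. Its log2 difference was 1.05 (95% confidence interval from 0.82 to 1.28, limma adjusted p = 1.39e-05), or 2.07-fold. Under normexp with an offset of 50, which compresses dim probes, this difference was 0.70 and still passed.

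C1s1 has a near copy beside it on chromosome 6, C1s2, and how far a probe of one reads the other is not known from the files. A single C1s2 probe of 4 was tested. It had log2 intensities of 6.57, 6.56, 6.44 and 7.0 in knockout, against 5.69, 6.20, 5.87 and 5.44 in wild type, where only replicates 2 and 3 were above background. Its fitted log2 difference was 0.84 (limma adjusted p = 0.00167), or 0.47 under normexp with an offset of 50. Since 2 of the 4 wild-type arrays were at background, neither value is a measured fold. The partner protease gene C1ra, which activates C1s in the C1 complex, was above background on no array, with deposited intensities from -16.2 to 2.37 in knockout and from -9.51 to 0.148 in wild type. C1rl, a related protease gene of the same cluster, had a log2 difference of 0.15 at its brighter probe (limma adjusted p = 0.0623) and of 0.39 at its other probe (limma adjusted p = 0.0260), so its probes disagreed in call.

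RefSeq lists 2 starts for C1s1. The bases before the outer of these, at chr6:124542360-124542609 on the minus strand of GRCm38.p6, are shown because this was the member of the C1 complex with signal. They are written 5′ to 3′ in the direction of the gene, and capitals mark a match to the first C/EBP form below.
C1s1: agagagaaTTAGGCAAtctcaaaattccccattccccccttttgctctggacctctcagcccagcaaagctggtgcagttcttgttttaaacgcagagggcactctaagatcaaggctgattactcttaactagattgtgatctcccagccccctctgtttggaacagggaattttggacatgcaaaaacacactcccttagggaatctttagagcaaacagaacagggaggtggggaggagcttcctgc
Promoters were searched on both strands, from 250 bases before to 50 after the start, for letters resembling sites of factors that act on complement genes. The motifs were a STAT site (TTCNNNGAA), the core of the interferon response element, NF-kB sites in a pair of forms that overlap, C/EBP sites (TTGCNNAA and TTNCGCAA, which overlap) and a TATA box (TATAAA). The match in C1s1, on the minus strand of the window at position -242, was the only one in it, and 10.8% of 32851 mouse promoters held that form. A match describes letters and not a bound site.

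C4b, which encodes the C4 component that C1s cleaves, moved the other way. Its probe had log2 intensities of 6.32, 6.73, 6.90 and 6.99 on the knockout arrays, against 8.63, 8.71, 8.63 and 8.88 on the wild-type arrays. All 8 values were above background, replicate 1 was the lowest knockout array, and the highest knockout array was still well under the lowest wild-type array. The group means were 6.74 ± 0.30 in knockout and 8.71 ± 0.12 in wild type (SD, n = 4 each), and the log2 difference was -1.98 (standard error 0.14, limma adjusted p = 9.65e-07). C4b was 3.93-fold lower, with a 95% confidence interval from 3.19-fold to 4.85-fold. Of the 4362 genes with a negative difference, 1.86% had one at least as large. Its near-identical copy C4a, a pseudogene in the RefSeq gene table, was above background on no array. Whether the probe of one copy also captures the other cannot be told from these files.

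The genes whose 8 log2 intensities, each centred on its mean, lay closest to those of C4b were Igf2, Deptor, Cx3cl1, Scx and Chil1. Their root mean square distances from C4b over the 8 arrays were 0.16, 0.17, 0.18, 0.19 and 0.20 on the log2 scale. Scx was above background on no knockout array and Deptor on 1, so their distances compare C4b with background values in knockout. The distance reflects mainly the size of the genotype difference, and Igf2, for example, had a log2 difference of -2.06. The 10 tested genes nearest to C4b in gene order on chromosome 17 lie in the class III region of the major histocompatibility complex. Of these, 2 were higher and 2 lower in knockout, with a median log2 difference of -0.15. Over all genes tested, 26.9% were higher and 30.7% lower.

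Of the alternative arm, C3 and Cfd had no probe, and Cfb gave no signal that could be compared. Cfb, factor B, is the protease part of the C3 convertase of that arm. Its deposited intensities were 15.0, 22.5, 18.8 and 26.8 in knockout, against 14.6, 22.8, 19.3 and 26.3 in wild type, and detection p-values were between 0.0915 and 0.178. The lowest of these p-values missed the limit, so Cfb had only an upper bound in both genotypes. C3ar1, the receptor of the C3a fragment, is carried mainly by myeloid cells. Its intensities were between -3.69 and 9.22 in knockout and between -1.87 and 13.3 in wild type. In a fit over all 25697 probes, with none left out for dimness, the log2 difference was -0.01 for Cfb (95% confidence interval from -0.18 to 0.16), -0.02 for C1ra (from -0.17 to 0.13) and -0.04 for C3ar1 (from -0.21 to 0.14). At background these intervals describe probe brightness and do not bound a change of the transcript.

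Cd55 was the member with the largest rise. Its log2 intensities were 8.55, 8.69, 8.45 and 8.81 on the knockout arrays, against 7.09, 6.99, 6.74 and 7.25 on the wild-type arrays. Replicate 3 was the lowest array and replicate 4 the highest in both genotypes, and the genotypes were far apart. The means were 8.62 ± 0.16 in knockout and 7.02 ± 0.21 in wild type (SD, n = 4 each). The log2 difference was 1.60, with a standard error of 0.12 and a 95% confidence interval from 1.35 to 1.86 (limma adjusted p = 1.35e-06), which is 3.04-fold. Of 3940 genes with a positive difference, 5.71% had one at least as large. Cd55b, the neighbouring copy, was above background on no array.

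**Figure D2:**
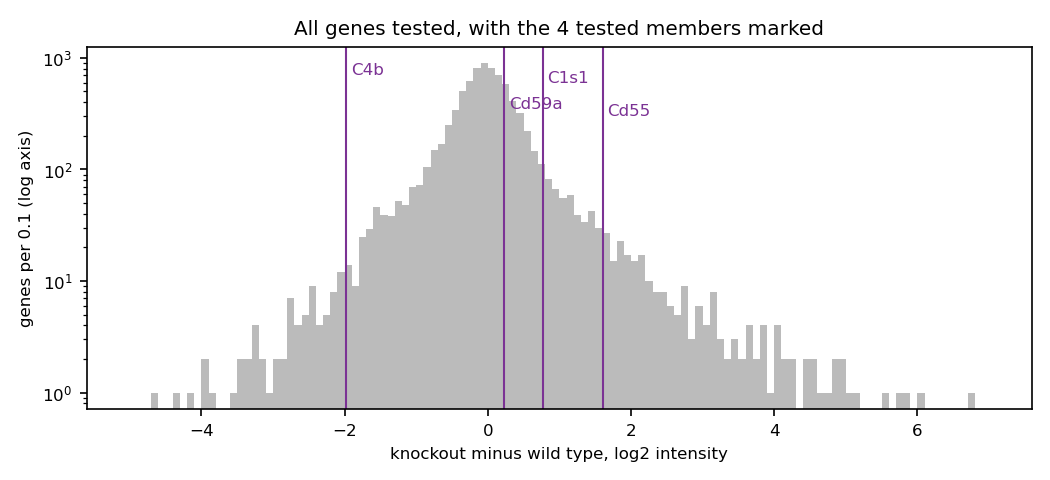
Number of genes (y axis, log scale) by knockout minus wild type difference in log2 intensity (x axis) over all 8302 genes tested. Purple lines mark C4b at -1.98, Cd59a at 0.23, C1s1 at 0.77 and Cd55 at 1.60.

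Cd55 lies on chromosome 1, as does the targeted gene Atp2b4, with 54 protein-coding genes between them in the RefSeq order. Of these, 19 were tested, 5 were higher and 5 lower, and 52.6% were called, beside 57.6% of all genes. The largest difference among them was that of C4bp, a complement regulator that binds C4b and assists factor I. C4bp had log2 intensities of 8.26, 8.70, 8.35 and 8.29 in knockout, against 10.89, 10.91, 10.80 and 10.87 in wild type. It was 5.52-fold lower (log2 difference -2.47, standard error 0.10, limma adjusted p = 1.52e-08). Cd55 was thus higher and C4bp lower on the same 8 arrays. Of the 10 tested genes nearest to Cd55, C4bp among them, 0 were higher and 7 lower, with a median log2 difference of -0.49. Over all genes tested, 26.9% were higher and 30.7% lower. Of the 10 tested genes nearest to Atp2b4, 4 were higher and 3 lower, with a median log2 difference of 0.22. Whether sequence around the deleted gene differs between the genotypes was not tested.

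The bases before the annotated starts of Cd55 and C4bp are shown side by side because these neighbours moved in opposite directions. They lie at chr1:130462745-130462994 and chr1:130661619-130661868, both on the minus strand of GRCm38.p6, and are written 5′ to 3′ in the direction of the gene, all in lower case since no motif matched.
Cd55: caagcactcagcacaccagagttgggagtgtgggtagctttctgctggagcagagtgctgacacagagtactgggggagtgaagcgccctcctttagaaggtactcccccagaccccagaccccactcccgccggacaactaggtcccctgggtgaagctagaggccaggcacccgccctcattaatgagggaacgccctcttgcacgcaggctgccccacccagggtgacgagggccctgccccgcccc
C4bp: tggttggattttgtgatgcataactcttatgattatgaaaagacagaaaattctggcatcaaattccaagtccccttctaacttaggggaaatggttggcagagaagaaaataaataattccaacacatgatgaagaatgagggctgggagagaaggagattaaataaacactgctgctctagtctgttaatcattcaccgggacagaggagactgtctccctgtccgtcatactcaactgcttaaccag
Neither window held any of the 7 motif forms searched. The Cd55 sequence is 64% G and C with 8 CG pairs, and the C4bp sequence is 40.8% G and C with 2 CG pairs, beside medians of 52.4% and 6 over all promoters. Absence of these letters says nothing of which factors act on either gene.

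The genes closest to Cd55 in their centred values over the 8 arrays were Lims2, Lrrtm2, Atp8b1, Gabrb1 and Srpx2, at root mean square distances of 0.08, 0.10, 0.12, 0.12 and 0.14 on the log2 scale. Gabrb1 was above background on no wild-type array and Lrrtm2 on 2, so their distances rest partly on background values. Lims2 had a log2 difference of 1.61, and that of Srpx2 was 1.45.

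Cd59a, which encodes the inhibitor of the membrane pore, was higher by a small amount. Its log2 intensities were 11.33, 11.31, 11.19 and 11.23 on the knockout arrays, against 11.08, 11.09, 11.04 and 10.91 on the wild-type arrays. The groups did not overlap, but the lowest knockout array, replicate 3, was only about 0.1 above the highest wild-type array. The log2 difference was 0.23, with a standard error of 0.07 and a 95% confidence interval from 0.08 to 0.38 (limma adjusted p = 0.0128), or 1.17-fold, and 56.2% of the genes with a positive difference had one at least as large. Its copy Cd59b, the neighbouring gene on chromosome 2, had log2 intensities of 9.54, 9.46, 9.52 and 9.52 in knockout, against 8.87, 8.91, 8.86 and 8.97 in wild type. Cd59b was 1.53-fold higher (log2 difference 0.61, limma adjusted p = 8.62e-06). Its second probe was above background on 2 knockout arrays and no wild-type array and was not tested. The probes of such near copies may share signal.

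The bases before the start of Cd59a, at chr2:104095551-104095800 on the plus strand of GRCm38.p6, are shown for the only interferon response element core found among the members' promoters, which is in capitals.
Cd59a: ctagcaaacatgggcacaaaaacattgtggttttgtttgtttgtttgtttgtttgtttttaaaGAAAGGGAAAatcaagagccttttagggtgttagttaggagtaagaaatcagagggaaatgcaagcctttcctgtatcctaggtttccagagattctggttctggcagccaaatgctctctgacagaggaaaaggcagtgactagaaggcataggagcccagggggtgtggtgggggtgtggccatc
The match starts at position -187, and 3.44% of all promoters held one. Promoter windows of RefSeq were at hand for 7 of the 9 members. C4b and Cfb had none there. Beside the matches shown, C3 held NF-kB, C/EBP and TATA box matches, C1ra STAT and C/EBP matches, and C3ar1 NF-kB and TATA box matches. These members had no probe or no signal above background, so whether they differed between the genotypes is not known. Cfd held no match.

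Beyond the members, 47 further complement genes were looked up by role, and 41 had a probe. Of these, 13 were tested, 5 were higher, 2 were lower and 6 were not called in limma, with a median log2 difference of 0.15. That is 7 of 13, beside 57.6% of all genes. C2 entered the test through its knockout arrays alone, and C1s2 and Masp2 were above background on only some wild-type arrays. Among the 10 genes above background on all 8 arrays, 3 were higher and 2 lower, beside 57.7% called of all genes above background on all 8. Regulators made up most of the calls, and 6 of the 13 genes tested were regulators. Of these 6, all above background on all 8 arrays, 3 were higher and 2 lower. That is 83.3% called, beside the same 57.7%. Serping1, the inhibitor that removes C1r and C1s from the C1 complex, had log2 intensities of 12.04, 12.15, 12.15 and 12.11 in knockout, against 10.15, 10.09, 10.17 and 10.13 in wild type. It was 3.94-fold higher, with a standard error of 0.06 for a log2 difference of 1.98 (limma adjusted p = 1.64e-09), and arrays of a genotype differed little. Cfi, factor I, is the protease that cuts C3b and C4b. It had log2 intensities of 8.12, 8.19, 8.10 and 8.36 in knockout, against 6.35, 6.63, 6.37 and 6.20 in wild type, and was 3.50-fold higher (limma adjusted p = 1.65e-07). Clu, clusterin, which holds back the terminal complex in plasma, was lower. Its log2 intensities were 9.70, 9.78, 9.86 and 9.68 in knockout, against 11.46, 11.23, 11.33 and 11.35 in wild type, a 3.01-fold difference (limma adjusted p = 3.79e-08). Cr1l, a mouse inhibitor of C3 and C4 activation on cell surfaces, had a log2 difference of -0.06 (95% confidence interval from -0.25 to 0.13) and did not pass.

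**Figure D3:**
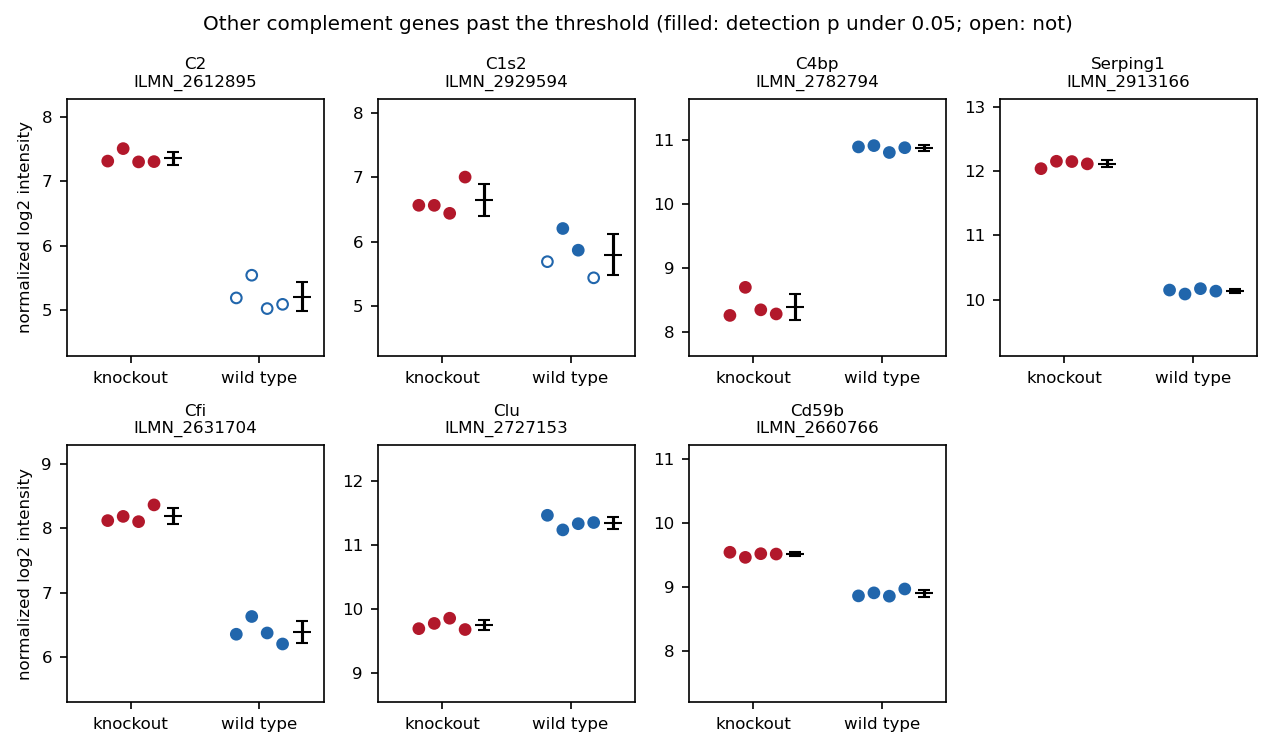
Normalized log2 intensity (y axis, a span of 4 units in each panel) of the 7 other complement genes past the threshold, on 4 knockout and 4 wild-type arrays; points are arrays and bars are the mean ± SD. C2, C1s2, Serping1, Cfi and Cd59b sit higher in knockout and C4bp and Clu lower, and open points show that C2 was above background on no wild-type array.

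C2 encodes the protease that joins C4b in the classical C3 convertase. It had log2 intensities of 7.32, 7.51, 7.30 and 7.31 in knockout, and was above background on no wild-type array, where its values were 5.19, 5.54, 5.02 and 5.09. C2 was at least 2.94-fold higher in knockout, a bound set against the lowest signal above background on each wild-type array. Its fitted log2 difference was 2.15, and 1.30 under normexp with an offset of 50, which is less than that bound. Having no wild-type signal, C2 passed the filter only because of its knockout arrays, and its call is no test of measured levels in both genotypes. Masp2, a protease of the lectin arm, was above background on 4 knockout arrays and 1 wild-type array, so its difference was not resolved. The terminal components C8b and C8g had differences of -0.07 (limma adjusted p = 0.609) and -0.16 (limma adjusted p = 0.238). Of 8 receptor genes only C1qbp, a binding protein of C1q also found in mitochondria, was tested, with a difference of -0.17 (limma adjusted p = 0.0541). C1qa, C1qb, C1qc, Masp1, Hc (which encodes C5), C6 and C9 were above background on no array, as were the receptors C5ar1, Itgam, Itgax, Itgb2 and Vsig4.

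**Figure D4:**
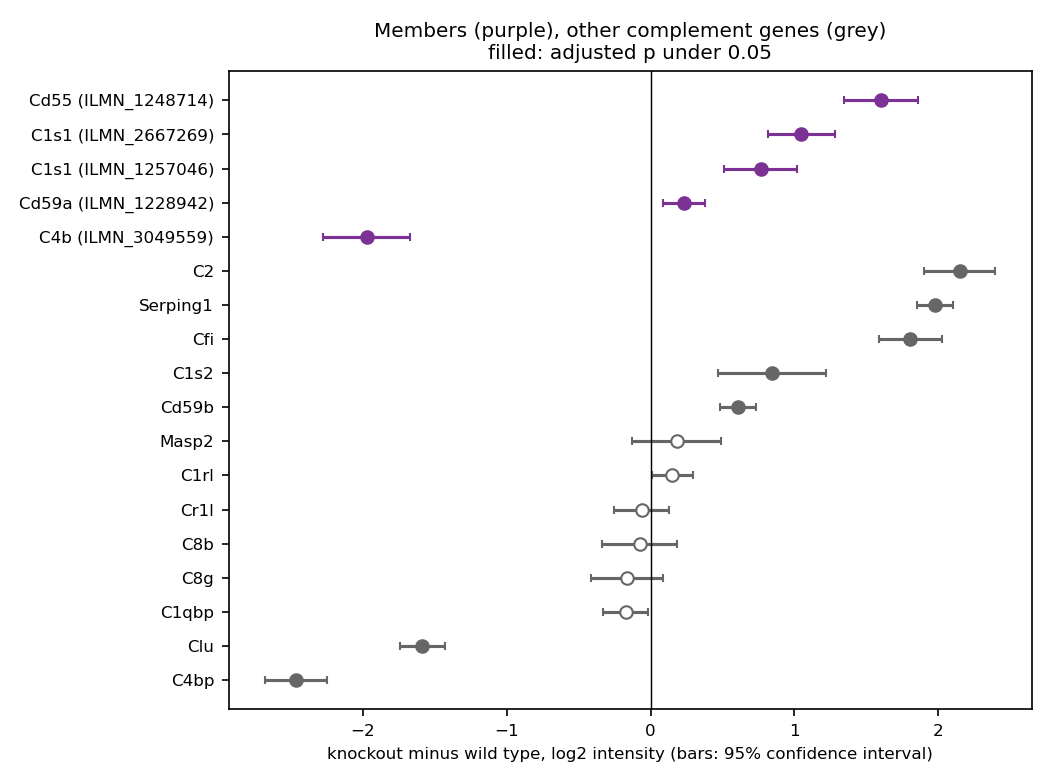
Knockout minus wild type difference in log2 intensity (x axis) with 95% confidence intervals for the 5 tested member probes (purple) and the 13 other complement genes tested (grey). Filled points passed an adjusted p of 0.05, C4b, C4bp and Clu lie left of 0, and the points of C2, C1s2 and Masp2 are fitted values that rest on wild-type arrays at background (4, 2 and 3 of 4).

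Cytokine genes and transcription factors known to act on complement genes moved both ways. Of 27 listed, 17 were tested, 4 were higher, 3 lower and 10 not called (median log2 difference -0.02), that is 7 of 17 beside 57.6% of all genes. Il6, interleukin 6, gave a signal above background in knockout only, at least 2.78-fold over wild type under the reported normalization. Its fitted log2 difference was 1.81, or 1.06 under normexp with an offset of 50, which is less than that bound. Il6 counts among the 4 only through its knockout arrays. Of the 16 genes above background on all 8 arrays, 3 were higher and 3 lower. That is 37.5% called, beside 57.7% of all genes above background on all 8. Ifngr2, a subunit of the interferon gamma receptor, was 3.17-fold higher at its brightest probe and Socs3, an inhibitor of cytokine receptor signalling, 2.62-fold higher. Stat2, of the type I interferon pathway, was 1.34-fold higher (limma adjusted p = 0.0223), a call lost without knockout replicate 1, 3 or 4 (limma adjusted p from 0.0503 to 0.0568). Nfkbiz, an inducible regulator of NF-kB target genes, was 2.98-fold lower. Irf1, an interferon-induced transcription factor, was 1.81-fold lower by its brightest probe. Stat3 (log2 difference -0.14, limma adjusted p = 0.153) and Cebpb (log2 difference 0.15, limma adjusted p = 0.345) did not pass at their brightest probe.

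Markers of other cells that make complement differed between the genotypes too. Of 16 adventitial fibroblast markers, 12 were tested, 11 were higher and 0 lower, beside 26.9% of all genes called higher and 57.6% called in either direction. All 9 that were above background on all 8 arrays were among the 11. The summed normalized intensity of the fibroblast list per array was between 99154 and 103224 in knockout and between 10675 and 11434 in wild type. Dcn (decorin), Igfbp6, Serpinf1 and Lum led this list, and Lum was above background on no wild-type array. Of 10 smooth muscle markers, 5 were higher and 1 lower of 6 tested, and Mylk and Myh11 entered the test through their knockout arrays alone. The other 4 split into 3 higher and 1 lower. The list's summed intensities lay between 66162 and 69399 in knockout and between 35165 and 40741 in wild type. Acta2, with a log2 difference of 0.83, made up most of the smooth muscle sum in both genotypes. The part of either list in the complement differences was not tested. In bulk samples, more cells of a type and more RNA per cell cannot be told apart.

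Of 15 leukocyte markers, 9 were above background on no array, among them Ptprc, Adgre1, Fcgr1, Cd163, Aif1 and Itgam, and 3 were tested. Csf1r and Cd68 had no probe, and Mrc1 was above background on too few arrays to be tested. Lyz2 and Cd3e were above background in knockout only, at least 2.40-fold and 1.87-fold higher under the reported normalization, and Cd14 was 3.34-fold lower. The leukocyte sum was between 308 and 322 in knockout and between 297 and 403 in wild type. Of 9 adipocyte markers, Adipoq, Plin1, Lep, Retn, Fabp4 and Cidec were above background on no array and 3 were tested, of which Pparg was 2.37-fold lower. The adipocyte sum was between 382 and 427 in knockout and between 737 and 904 in wild type. Of 9 endothelial markers, Pecam1, Cdh5, Tek, Kdr and Vwf were above background on no array, while Flt1 was 1.54-fold higher and Plvap 1.49-fold lower. Cldn5 had no probe, and Emcn was above background on too few arrays to be tested. The endothelial sum was between 375 and 383 in knockout and between 304 and 342 in wild type. These sums cover only the tested genes, 3 for leukocytes, 3 for adipocytes and 2 for endothelium. In wild type, Cd14 (mean log2 intensity 8.01) made up most of the leukocyte sum and Pparg (9.49) most of the adipocyte sum.

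**Figure D5:**
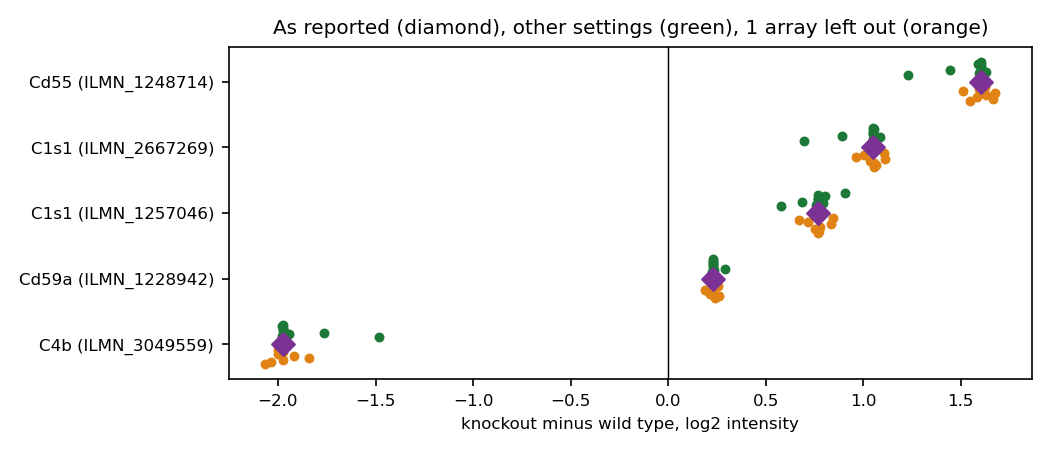
Knockout minus wild type difference in log2 intensity (x axis) of the 5 tested member probes under the reported setting (purple diamonds), other settings (green) and with 1 array left out (orange). C4b stays between -2.07 and -1.48 and the other probes stay above 0.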

How the data were processed

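Per the labels' protocols, total RNA was amplified to biotin-labelled cRNA and hybridised to Illumina arrays. The authors deposited a signal intensity per probe and array, and between 28.42% and 29.69% were below 0, so background had been subtracted. They deposited with it a detection p-value, per the file headers. A second table of log2 values was deposited with equal distributions on all arrays, so it was quantile normalized. What software made either table is not stated in labels or headers, and the second served as an alternative. Columns not used numbered 0.

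Intensities were processed with neqc of limma 3.58.1 (R 4.3.3), with an offset of 16 and quantile normalization, then log2. Probes detected (p under 0.05) on 4 or more of the 8 arrays were fitted with lmFit and eBayes, knockout minus wild type, without a block, and adjusted by Benjamini-Hochberg over all 12040. A gene is its brightest tested probe. Symbols came from the platform annotation, updated by gene identifier to GRCm38.p6 names, and promoters from RefSeq (GRCm38.p6). For a probe above background in 1 genotype only, the fold is a lower bound that holds under the reported normalization alone. It sets the bright group's mean against, on each other array, the higher of its own value and the lowest detected signal. The number of arrays limits precision. Members and lists were chosen with earlier results of these data known. All members are named, with up to 6 called genes per complement or cytokine list, up to 4 per cell type list, ranked by size of change, and the 5 genes most like C4b and Cd55. Other genes named, including those not called, were chosen after their values were seen. The fit was tested on simulated data. Figures used matplotlib 3.10.9.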

Additional observations from a re-analysis of the deposited data

Results flagged for a closer look

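In 5 of 90 groups of 4 arrays checked, 1 array stood apart from the other 3 by a gap past Dixon's 95% critical value, and chance alone gives about 1 in 20 such groups. No member probe was among them. C2 was at a log2 intensity of 7.51 on knockout replicate 2, with the other knockout arrays from 7.30 to 7.32. Tagln was at 11.81 on knockout replicate 3, with the others from 11.72 to 11.73, and Dcn was at 14.24 on knockout replicate 4, with the others from 14.10 to 14.12. Gabrb1 was at 6.38 on knockout replicate 3, with the others at 6.54. Cd14 was at 8.39 on wild-type replicate 1, with the others from 7.85 to 7.94. In each case the gap was small beside the difference between genotypes.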

How the results depend on the processing

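All 5 tested member probes kept their direction and their call in each of the alternatives run: array weights, a robust spread with a trend on intensity, the replicate block, the deposited log2 table, scaling by medians or cyclic loess in place of quantiles, normexp (offset 50) or no background correction, no filter on dim probes or one at a detection p of 0.01, the mean of probes for C1s1, and leaving out each array. The log2 difference was between -2.07 and -1.48 for C4b, 1.23 and 1.68 for Cd55, 0.58 and 0.91 for C1s1 at its brighter probe, 0.70 and 1.11 at its other probe, and 0.19 and 0.29 for Cd59a. With 1 array left out, member probes called stayed at 4 higher and 1 lower, other complement genes called at 4 to 6 higher and 2 to 3 lower, and all probes called at 2651 to 3135 higher and 3168 to 3402 lower. C2 and Il6 were not tested without any 1 knockout array, since the filter still asked for 4 arrays above background. Of the other genes followed, Stat2 alone lost its call. Samples of the same number deviated together by correlations of -0.0294 to 0.0871, so the numbers were not taken to pair the arrays. With the replicate number as a block, no member call changed. The log2 differences of members (-1.98 for C4b, 1.60 for Cd55, 0.23 for Cd59a) could not change, since each number occurs once in each genotype. Signal over background limits Cfb, C1ra and C3ar1.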
